A study of Mus musculus with 5 samples.

Results

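The genes described here are, with few exceptions, genes for nuclear subunits of the 5 enzyme complexes of oxidative phosphorylation. They were chosen by name alone: symbols that start with Ndufa, Ndufb, Ndufc, Ndufs or Ndufv and a digit, with Uqcr, with Cox4 to Cox8 or with Atp5, and the 4 Sdh genes, leaving out pseudogene and Rik symbols. This gave 82 of the 17638 genes of the table, 37 of complex I, 4 of complex II, 8 of complex III, 16 of complex IV and 17 of complex V. The choice by name misses subunit genes with other names, such as Ndufab1, so no complex is claimed to be complete. It also takes in Atp5s and Atp5sl, which are not named as subunits today. The symbols are those of the table, which uses the older Atp5 names, and all but 1 of them, Atp5sl (now Dmac2), are also the symbols of the GENCODE M21 annotation. The samples were CD31+ cells (CD31 is the protein of Pecam1, found on the endothelium and also on platelets and part of the leukocytes) from hearts of 2-month-old mice of C57BL/6 background, taken 5 days after myocardial infarction. The 3 control libraries and 2 Tbx1cko libraries thus share strain, age and infarction, and differ by the knockout of Tbx1, a T-box transcription factor gene, which the series describes as endothelial. The labels name neither the Cre driver, nor the exact genotype of the controls, nor whether each library is its own animal. The p-values below therefore reflect the spread among these 5 libraries only, and this spread may be technical.

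Oxidative phosphorylation takes place in the inner mitochondrial membrane. Complex I (NADH dehydrogenase) and complex II (succinate dehydrogenase) pass electrons to ubiquinone, complex III (cytochrome bc1) passes them on to cytochrome c, and complex IV (cytochrome c oxidase) passes them to oxygen, while complexes I, III and IV pump protons that drive complex V, the ATP synthase. Endothelial cells are known for drawing much of their ATP from glycolysis, whereas cardiomyocytes are packed with mitochondria and use their own isoforms of some complex IV subunits. Some subunits are encoded in the mitochondrial DNA and are not analysed here. Many nuclear subunit genes have processed pseudogenes, so counts of single members can be uncertain where reads match several copies.

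The deposited values are normalised read counts, in which every library's reads are scaled by its size factor. The libraries held between 14689782 and 18617284 reads. Tbx1 had 64.4, 72.7 and 69.6 normalised counts over control replicates 1 to 3, against 18.3 and 17.3 in Tbx1cko replicates 1 and 2, so its level went with the labels. Endothelial markers were high, with Pecam1 between 33715 and 43313 and Cdh5 between 45379 and 62849 normalised counts. Markers of macrophages and monocytes (10 of 10 found, summing to 50035 to 88443 in controls and 84951 and 89996 in Tbx1cko, Ccr2 at 0 in control replicate 2), of pericytes and smooth muscle (10 of 10, 47108 to 59716 and 38242 and 40553, none at 0) and of cardiomyocytes (10 of 10, 8357 to 18291 and 10363 and 11939, none at 0) were present as well. Control replicate 2 differed most from the remaining libraries, so the main results are given with and without it.

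No subunit gene was called different between Tbx1cko and control. The limma test over all 14339 genes whose mean normalised count reached 10 called 0 of the 81 subunit genes that passed this filter, and 0 (0.0%) of all genes, at an adjusted p below 0.05. The 82nd gene, Cox6b2, fell just below the filter. Tbx1 itself was not called either, at a log2 difference of -1.89 (limma, adjusted p = 0.762). At an unadjusted p below 0.05 the counts were 0 of 81 subunit genes and 250 of all genes (1.74%). On log2(normalised count + 1), 33 of the subunit genes lay above and 48 below 0, and the differences had a median of -0.10 (quartiles -0.23 and 0.12), where the median over all genes tested was 0.03. The groups did not overlap for 3 subunit genes lower in Tbx1cko (Ndufa4l2, Ndufa6 and Cox4i2; 13.9% of all genes) and for 7 higher (Ndufa9, Ndufv2, Uqcrb, Uqcrc2, Cox6c, Atp5c1 and Atp5f1; 14.2% of all genes).

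The spread among the 3 controls was wider than the distance between the genotypes. Each library's deviation from the gene means, as a median over the 81 subunit genes, was 0.04, 0.38 and -0.26 on the log2 scale over control replicates 1 to 3, against 0.00 and -0.10 in Tbx1cko replicates 1 and 2. Both Tbx1cko libraries thus lay between control replicates 1 and 3. The same medians over all genes tested lay between 0.01 and 0.03 in every library. Control replicate 2 held the highest value for 57 of the 82 subunit genes (41.1% of all genes tested), and control replicate 3 the lowest for 51 (13.2% of all genes tested). Control replicate 3 held the highest value of none of the 82. It was higher than control replicate 1 for only 9 of the 81 genes, with a median difference of -0.26, while Tbx1cko replicate 1 was higher than control replicate 3 for 75 of 81, with a median of 0.25.

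**Figure D1:**
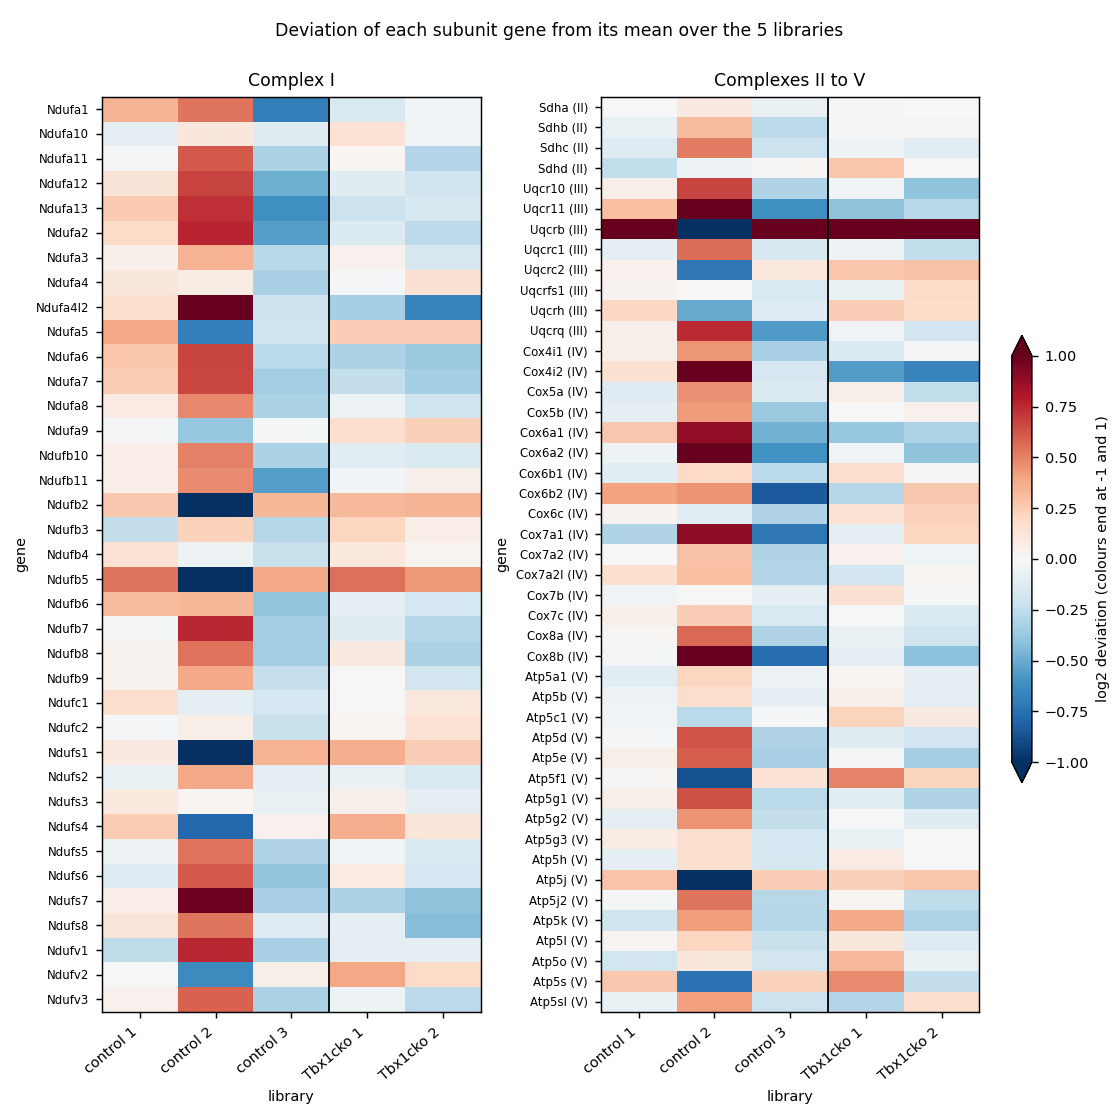
Deviation of log2(normalised count + 1) from the gene's mean over the 5 libraries (colour, ending at -1 and 1) for each of the 82 subunit genes (rows, complex in brackets) in each library (columns, with the genotypes separated by the black line). Most rows are red in control replicate 2 and blue in control replicate 3, and Uqcrb is far below its mean in control replicate 2.

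As a share of all normalised counts, the 82 genes together made up 0.569%, 0.669% and 0.512% over control replicates 1 to 3, against 0.590% and 0.550% in Tbx1cko replicates 1 and 2. Complex V held the largest part, 0.223% to 0.257% over the 5 libraries, followed by complex I with 0.120% to 0.172%, complex IV with 0.0863% to 0.139%, complex III with 0.0444% to 0.0537% and complex II with 0.0388% to 0.0462%. For all 5 complexes the lowest share was that of control replicate 3 and the highest that of control replicate 2. The Tbx1cko shares lay within the range of the controls for all 5 complexes. In bulk samples such as these, fewer cells of a type and less RNA per cell cannot be told apart.

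Within the complexes the genes differed widely in level. The levels compared here are mean normalised counts per kb of transcript, over the 5 libraries. Atp5b, the catalytic beta subunit of ATP synthase, was the highest of all at 6241, and Cox6a1 led complex IV at 4677. The other complexes were led by Uqcrh, the hinge subunit of complex III, at 2332, by Ndufa4 at 1750.4 and by Sdha, the flavoprotein of complex II, at 1055. The 4 succinate dehydrogenase genes were the most even, from 763 for Sdhc to 1055 for Sdha, a 1.38-fold range. Complex III spanned a 3.15-fold range down to Uqcrc2 at 741. The median over the genes of a complex was 634 for complex I, 979 for complex II, 1161 for complex III, 1454 for complex IV and 1735 for complex V. At the low end stood Cox6b2, a testis isoform, at 22.3, Ndufb2 at 28.4 and Atp5s at 48.1. The value of Ndufb2 rests on a median annotated transcript length of 2413 bases, long for these genes. Atp5s and Atp5sl, now named Dmac2l and Dmac2, are not named as subunits of ATP synthase today. Without them the median log2 difference of complex V stayed at -0.04.

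**Figure D2:**
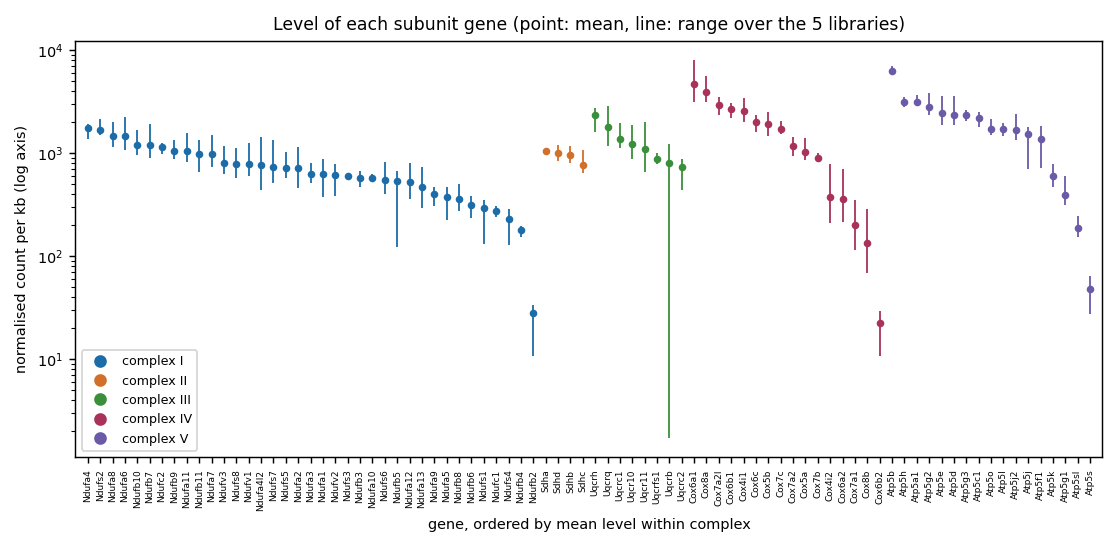
Level of each of the 82 genes as normalised count per kb of transcript (log axis), ordered by mean within each complex. Points are means and lines run from the lowest to the highest of the 5 libraries. Atp5b is the highest at 6241 and the line of Uqcrb reaches far down because of a single read in control replicate 2.

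The deviation of control replicate 2 followed the base composition of the transcripts. Over the 81 genes its distance from the mean of the other 4 libraries had a Spearman rho of 0.75 with the GC content of the transcripts, against 0.81 over the 14149 genes tested that had a GC value. These coefficients are descriptions across genes of the same libraries. Of the 54 subunit genes with a GC content of at least 50%, control replicate 2 lay above the other libraries in 51, by a median of 0.67 on the log2 scale. For the 27 genes under 50% it lay below in 16 (59.3%), with a median of -0.12. Over all genes tested the high-GC genes were similar, with 82.8% above and a median of 0.51, but of the genes under 50% GC 86.2% lay below, with a median of -0.92. The subunit genes under 50% GC thus lay higher in control replicate 2 than all genes under 50%, by these medians. Their GC content began at 39.6%, against 30.8% over all genes tested, and the sets were not matched for GC content. The genotype differences followed the same property, with a rho of -0.73 over all 5 libraries and -0.44 without control replicate 2. Over all genes tested the rho was -0.73 and -0.31. The median log2 difference was -0.18 for the subunit genes with at least 50% GC, of which 41 of 54 lay below 0, and 0.23 for the others, of which 20 of 27 lay above 0. Over all genes tested these medians were -0.19, with 5661 of 7526 below 0, and 0.39, with 5532 of 6623 above 0. Without control replicate 2 the medians were 0.03 and 0.12 for the subunit genes, against -0.04 and 0.08 over all genes tested. A correction of each library for GC content moved the median log2 difference of all genes tested from 0.03 to 0.11, and that of the subunit genes to 0.13, with a rho of 0.09 left between GC content and the difference. The subunit transcripts were short, with a median of 742 bases against 2634.5 over all genes tested, and their median GC content was 51.9% against 50.5%.

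**Figure D3:**
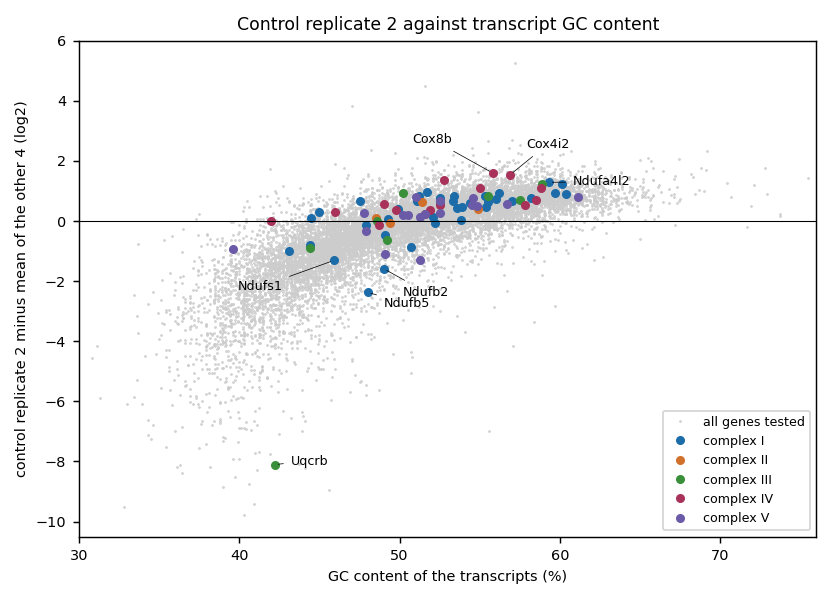
GC content of the transcripts (x axis, percent) against control replicate 2 minus the mean of the other 4 libraries (y axis, log2), for the 81 subunit genes tested (coloured by complex) and all genes tested (grey). The subunit genes rise with GC content, with rho 0.75, and Uqcrb lies at -8.10. Under 50% GC their median is -0.12, against -0.92 for all genes tested, whose GC content reaches lower values there.

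The first 90 coding bases of 4 genes are shown because they belong to the 2 subunit genes furthest below the other libraries in control replicate 2 (Uqcrb at -8.10 and Ndufb5 at -2.37) and the 2 furthest above (Cox8b at 1.60 and Cox4i2 at 1.54, log2). They come from the GENCODE M21 transcripts (GRCm38), run 5′ to 3′ from the start codon, and have G and C in capitals.
Uqcrb: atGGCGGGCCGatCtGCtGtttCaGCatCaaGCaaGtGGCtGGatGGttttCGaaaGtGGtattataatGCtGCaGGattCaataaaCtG
Ndufb5: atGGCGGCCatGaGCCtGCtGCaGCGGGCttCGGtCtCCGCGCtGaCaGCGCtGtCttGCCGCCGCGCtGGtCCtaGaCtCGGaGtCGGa
Cox4i2: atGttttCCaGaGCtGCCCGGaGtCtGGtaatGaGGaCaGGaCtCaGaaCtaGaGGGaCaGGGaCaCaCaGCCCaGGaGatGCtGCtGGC
Cox8b: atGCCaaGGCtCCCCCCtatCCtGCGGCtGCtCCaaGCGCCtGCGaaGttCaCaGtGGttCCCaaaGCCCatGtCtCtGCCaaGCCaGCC
Over the whole coding sequence the GC content was 42.9% for Uqcrb, 50.4% for Ndufb5, 56.3% for Cox4i2 and 57.7% for Cox8b. The Ndufb5 stretch shown has 68.9% GC, while the whole Ndufb5 transcript has 48.0%.

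Uqcrb, which encodes a ubiquinone-binding subunit of complex III (chromosome 13, 66900617 to 66905378, minus strand, GRCm38), was nearly absent from control replicate 2. Its normalised counts were 461, 0.92 and 458 over control replicates 1 to 3, against 654 and 559 over Tbx1cko replicates 1 and 2. Control replicate 2 held 1 read (exact Poisson interval at 95%, 0.0253 to 5.57 reads, for counting error only), where the other libraries held 408 to 715. Of the 9961 genes with at least 100 normalised counts in each of the other 4 libraries, 70 (0.703%) were more than 50-fold below the lowest of them in control replicate 2, with a median GC content of 39.9%. Of the 77 subunit genes with that level, 1 was among them, Uqcrb. Its fitted log2 difference of 3.03 (limma, SE 2.53, adjusted p = 0.762) was 0.40 without it, where the Tbx1cko libraries were still the 2 highest.

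Among the complex I genes no difference passed the test, and the median log2 difference was -0.15, or 0.03 without control replicate 2. The NADH-oxidising arm is formed by Ndufv1, Ndufv2 and Ndufs1 with smaller partners. Ndufv2, an iron-sulfur subunit (chromosome 17, 66078638 to 66101559, minus strand), had normalised counts of 788, 506 and 821 over control replicates 1 to 3, against 1029.9 and 902 over Tbx1cko replicates 1 and 2. Its groups did not overlap, with a log2 difference of 0.48 (limma, SE 0.285, adjusted p = 0.762) that was 0.26 without control replicate 2 and 0.08 after correction for GC content. Ndufs1, the largest iron-sulfur subunit, had 768, 349 and 917 in the controls against 931 and 859 in Tbx1cko, and the low value of control replicate 2 alone set its log2 difference of 0.51 apart from 0.09, the value without that library. Ndufv1, which binds NADH and the flavin, went the other way in control replicate 2, with 959, 1929 and 914 in the controls against 1069 and 1074 in Tbx1cko. Here the Tbx1cko values lay among the controls, at a log2 difference of -0.15, or 0.19 without control replicate 2.

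Ndufs8, an iron-sulfur subunit near the ubiquinone site, had 820.3, 1090.0 and 689.7 in the controls against 702 and 560.5 in Tbx1cko, a log2 difference of -0.44 (limma, SE 0.274, adjusted p = 0.762), or -0.26 without control replicate 2 and -0.04 after GC correction. The groups overlapped, since Tbx1cko replicate 1 lay above control replicate 3. The accessory subunit gene Ndufa6 (chromosome 15, 82350140 to 82354322, minus strand) had 647, 855 and 443 in the controls against 427 and 412 in Tbx1cko. Both Tbx1cko values lay below all controls, yet only 16.1 normalised counts separated Tbx1cko replicate 1 from control replicate 3. Its log2 difference was -0.58 (limma, SE 0.323, adjusted p = 0.762), or -0.35 without control replicate 2. Ndufa9, an accessory subunit next to the ubiquinone site, had 533, 414 and 534 in the controls against 604 and 637 in Tbx1cko, higher in Tbx1cko without overlap at a log2 difference of 0.34 (limma, SE 0.222, adjusted p = 0.762), or 0.22 without control replicate 2. Ndufb5, an accessory subunit of the membrane arm, had 417, 76.3 and 374 in the controls against 421 and 387 in Tbx1cko, and its partner Ndufb2 had 76.8, 25.8 and 80.0 in the controls against 79.6 and 80.5 in Tbx1cko. In both genes control replicate 2 was far below 4 libraries that lay close together. Ndufb3, another membrane-arm subunit, was highest in control replicate 2, with 371, 514 and 358 in the controls against 509 and 459 in Tbx1cko. Its log2 difference of 0.24 became 0.40 without that library, but -0.10 after GC correction of all 5 libraries.

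The 4 genes of complex II, the only complex that also works in the citric acid cycle, had a median log2 difference of 0.00, or 0.13 without control replicate 2. Sdha, the catalytic flavoprotein (chromosome 13, 74322254 to 74350280, minus strand), had normalised counts of 3054, 3256 and 2897 over control replicates 1 to 3, against 3024 and 3066 over Tbx1cko replicates 1 and 2. Their averages came to 3069 ± 180.0 (SD, n = 3) in controls and 3045 ± 30.2 (SD, n = 2) in Tbx1cko, and the log2 difference was -0.01 (limma, SE 0.168, adjusted p = 0.983). All 5 libraries lay close together for this gene, control replicate 2 included. Sdhb, the iron-sulfur subunit, had 1033, 1353 and 909.9 in the controls against 1098 and 1096 in Tbx1cko, and the membrane anchor Sdhc had 1364, 2131 and 1285 in the controls against 1443 and 1378 in Tbx1cko. Both were highest in control replicate 2 and overlapped between the genotypes. Sdhd, the second membrane anchor, had 1029, 1176 and 1232 in the controls against 1481 and 1221 in Tbx1cko, a log2 difference of 0.23 (limma, SE 0.204, adjusted p = 0.762). Its highest value was in Tbx1cko replicate 1, while Tbx1cko replicate 2 lay below control replicate 3.

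In complex III the genes fell on both sides of 0, 4 higher and 4 lower, and the median log2 difference of -0.05 became 0.13 without control replicate 2. Uqcrc2, a core protein (chromosome 7, 120635176 to 120659524, plus strand), had normalised counts of 1404, 832 and 1468 over control replicates 1 to 3, against 1653 and 1668 over Tbx1cko replicates 1 and 2. The groups did not overlap, and the log2 difference was 0.47 (limma, SE 0.305, adjusted p = 0.762), or 0.21 without control replicate 2 and 0.07 after GC correction. Its partner in the core, Uqcrc1, had 2054, 3232 and 1968 in the controls against 2124 and 1855 in Tbx1cko, so the 2 core genes moved in opposite directions in control replicate 2. Their transcripts had a GC content of 44.4% and 57.5%. Uqcrfs1, the Rieske iron-sulfur protein, had 1215, 1191 and 1069.8 in the controls against 1129 and 1355 in Tbx1cko, with a log2 difference of 0.10 (limma, SE 0.196, adjusted p = 0.843) and overlapping groups. Uqcrh had 1253, 768 and 992 in the controls against 1289 and 1232 in Tbx1cko, and its Tbx1cko values lay near the highest control. The small subunit gene Uqcr11 had 556, 899 and 294 in the controls against 340.2 and 372 in Tbx1cko. Its controls spread over a 3.06-fold range that held both Tbx1cko libraries.

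Complex IV had a median log2 difference of -0.14, or 0.10 without control replicate 2, and in 14 of its 16 genes control replicate 2 was the highest library and in 14 control replicate 3 the lowest. Cox6c, a small nuclear subunit (chromosome 15, 35925886 to 35938246, minus strand), had normalised counts of 1226, 1111 and 974 over control replicates 1 to 3, against 1329 and 1407 over Tbx1cko replicates 1 and 2. Both Tbx1cko values lay above all controls. The log2 difference was 0.32 (limma, SE 0.198, adjusted p = 0.762), and at 0.32 it was as large without control replicate 2. Cox6b1, which faces cytochrome c, had 1199, 1488 and 1076 in the controls against 1471 and 1312 in Tbx1cko, a log2 difference of 0.16, or 0.29 without control replicate 2. Cox5a, a matrix-side subunit, had 598, 896 and 591 in the controls against 679.6 and 549 in Tbx1cko, with overlapping groups and a log2 difference of -0.16 (limma, SE 0.277, adjusted p = 0.819). Cox7b had 873, 893 and 839 in the controls against 999 and 893 in Tbx1cko, controls within 1.06-fold of each other and its highest value in Tbx1cko replicate 1.

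Complex V, the ATP synthase, had a median log2 difference of -0.04, or 0.05 without control replicate 2. Atp5b (chromosome 10, 128083273 to 128090391, plus strand) had normalised counts of 11535, 13464 and 11263 over control replicates 1 to 3, against 12361 and 11169 over Tbx1cko replicates 1 and 2. The groups overlapped, at a log2 difference of -0.04 (limma, SE 0.173, adjusted p = 0.935). Atp5f1, which encodes the b subunit of the peripheral stalk (chromosome 3, 105942698 to 105960099, minus strand), had 2122, 1151 and 2328 over control replicates 1 to 3, against 2972 and 2465 over Tbx1cko replicates 1 and 2. Both Tbx1cko values lay above all controls, with a log2 difference of 0.60 (limma, SE 0.355, adjusted p = 0.762) that was 0.28 without control replicate 2. Atp5c1, the gamma subunit of the rotating central stalk, had 2468, 2105 and 2522 in the controls against 2959.7 and 2706 in Tbx1cko, again without overlap, at a log2 difference of 0.26 (limma, SE 0.185, adjusted p = 0.762), or 0.18 without control replicate 2. The peripheral stalk gene Atp5j (coupling factor 6) had 1322, 523 and 1283 in the controls against 1276 and 1316 in Tbx1cko. Apart from the low control replicate 2 its 4 values were nearly equal, and its log2 difference went from 0.43 to -0.01 without that library.

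Without control replicate 2 the subunit genes lay mostly above 0. The log2 difference was above 0 for 56 of 81, against 53.3% of all genes tested, with a median of 0.06 against 0.02. The 10 cardiomyocyte markers lay on the same side in this fit, with 10 above 0 and a median of 0.35. Of them, 9 were higher without overlap (19.7% of all genes) and 8 had an unadjusted limma p below 0.05 (7.46% of all genes). Macrophage and monocyte markers (7 of 10 above 0, median 0.20) and platelet markers (6 of 6 tested, 0.49) lay on that side too. The medians of the endothelial (-0.08), pericyte and smooth muscle (-0.66), fibroblast (-0.14) and erythroid (-0.07) markers lay below 0. The part of any of these cells in the subunit genes was not tested. At an unadjusted limma p below 0.05 there were 6 subunit genes (Ndufa4l2 and Cox4i2 lower, Ndufb3, Uqcrb, Cox6b1 and Cox6c higher), or 7.41%, where all genes gave 7.46%. At an adjusted p below 0.05 limma called 0 subunit genes and 3 of all genes (0.0209%), with a smallest adjusted p among the subunit genes of 0.468, for Cox4i2. The remaining 2 controls and the 2 Tbx1cko libraries did not overlap for 3 subunit genes lower (17.8% of all genes) and 19 higher (19.7% of all genes) in Tbx1cko. The share of subunit genes higher without overlap was 23.5%, and the share lower was 3.70%. Control replicate 3, 1 of the 2 controls that remained, held the lowest value of 51 subunit genes. Without control replicate 3 in place of 2, 31 subunit genes were lower without overlap (24.8% of all genes) and 10 higher (28.4% of all genes), and the median was -0.24.

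**Figure D4:**
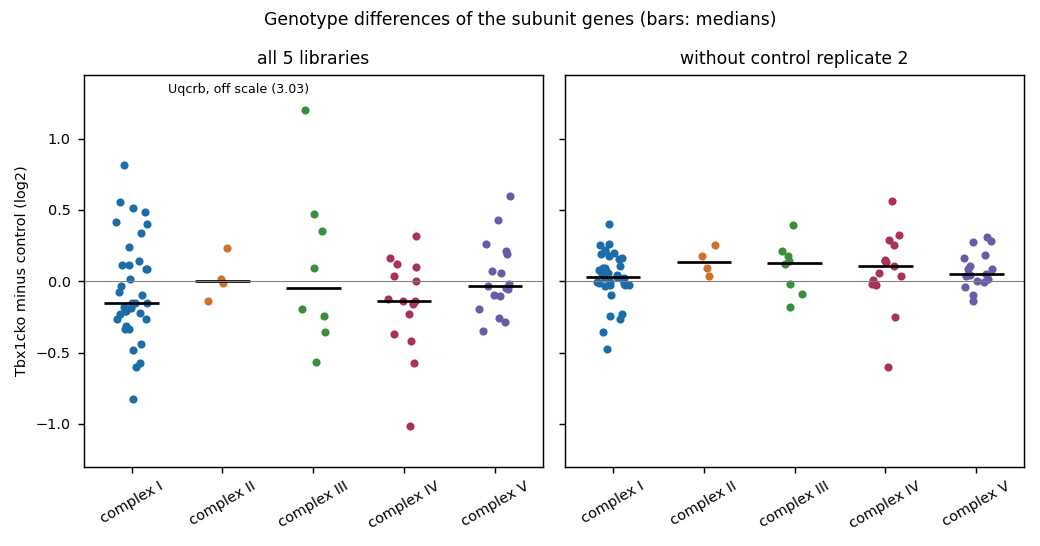
Log2 difference between Tbx1cko and control for each subunit gene tested (points) by complex, with medians as bars, over all 5 libraries (left) and without control replicate 2 (right). The medians lie between -0.15 and 0.00 on the left and between 0.03 and 0.13 on the right, and Uqcrb at 3.03 is drawn at the edge of the scale.

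The lowest log2 differences of all subunit genes belonged to 2 isoforms. Cox4i2 is an alternative form of the complex IV subunit encoded by Cox4i1, known from lung and from responses to low oxygen, and Ndufa4l2 is a paralog of Ndufa4 known as a target of hypoxia-inducible factor. Ndufa4 itself is now placed in complex IV. Both alternative forms are also known as genes of cardiac pericytes. Cox4i2 (chromosome 2, 152754173 to 152765037, plus strand) had normalised counts of 270.0, 572 and 215 over control replicates 1 to 3, against 165 and 153 over Tbx1cko replicates 1 and 2. Their averages came to 353 ± 192 (SD, n = 3) in controls and 159 ± 8.32 (SD, n = 2) in Tbx1cko, with no overlap and a log2 difference of -1.02 (limma, SE 0.457, adjusted p = 0.762). It was -0.60 without control replicate 2 and -0.62 after GC correction. Ndufa4l2 (chromosome 10, 127514967 to 127517154, plus strand) had 734, 1336 and 566 over control replicates 1 to 3, against 519 and 414 over Tbx1cko replicates 1 and 2. The groups again did not overlap, and the log2 difference was -0.83 (limma, SE 0.406, adjusted p = 0.762), or -0.48 without control replicate 2 and -0.35 after GC correction.

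The common partners did not show this order. Cox4i1, the general form, had 1957, 2566 and 1513 in the controls against 1717 and 1865 in Tbx1cko, with overlapping groups and a log2 difference of -0.14 (limma, SE 0.271, adjusted p = 0.84). Ndufa4 had 867, 841 and 638 in the controls against 793 and 888 in Tbx1cko, a log2 difference of 0.11 (limma, SE 0.229, adjusted p = 0.84). As a share of both genes per kb, which does not depend on the scaling of a library, Cox4i2 made up 12.5%, 18.7% and 12.8% over control replicates 1 to 3, against 9.02% and 7.82% in Tbx1cko. Ndufa4l2 made up 29.4%, 43.9% and 30.4% in the controls and 24.4% and 18.7% in Tbx1cko. In both pairs the Tbx1cko shares lay below all control shares. The log2 ratio of alternative to common form differed between Tbx1cko and control by a mean of -0.88 for Cox4i2 and -0.94 for Ndufa4l2, or -0.66 and -0.65 without control replicate 2. The transcripts of Ndufa4 and Ndufa4l2 had a GC content of 44.5% and 59.3%, those of Cox4i1 and Cox4i2 of 57.8% and 56.9%. After GC correction the log2 differences were -0.27 for Ndufa4 and -0.35 for Ndufa4l2, so this pair then hardly differed. For Cox4i1 and Cox4i2 they were 0.29 and -0.62. No test was made of these shares.

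Markers of pericytes and smooth muscle lay on the same side as these 2 isoforms. Of the 10 marker genes, 9 were below 0 and without overlap (13.9% of all genes), with a median log2 difference of -0.91, or -0.66 without control replicate 2, when all 10 lay below 0. Pdgfrb, the pericyte growth factor receptor, had 3161, 4413 and 2011 in the controls against 1345 and 1396 in Tbx1cko, and Notch3 had 4802, 7785 and 3443 in the controls against 2039.6 and 2235 in Tbx1cko. Like Cox4i2 and Ndufa4l2, both were highest in control replicate 2. So were 8 of the 10 in all. Rgs5, the marker above 0, had 35182, 8734 and 30891 in the controls against 23353 and 27112 in Tbx1cko, lowest in control replicate 2. At an unadjusted limma p below 0.05 there were 7 of the 10 (1.74% of all genes), and all 10 without control replicate 2 (7.46% of all genes). No marker passed the adjusted limma threshold, at a smallest adjusted p of 0.762, or 0.169 without control replicate 2, and the part of these cells in the levels of Cox4i2 and Ndufa4l2 was not tested. Of the 10 endothelial markers, 8 also lay below 0, with 4 lower and 1 higher without overlap (13.9% and 14.2% of all genes). Their median was -0.17, or -0.08 without control replicate 2. The erythroid markers had a median of -0.41. The medians of the cardiomyocyte (0.04), macrophage and monocyte (0.43), fibroblast (0.05) and platelet (0.23) markers lay above 0. Without the 2 isoforms the median log2 difference of the subunit genes was -0.07.

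Cox6a2, Cox7a1 and Cox8b are the heart and skeletal muscle forms of complex IV subunits, and Cox6a1, Cox7a2 and Cox8a their general partners. Cox6a2 had 216, 480.1 and 147 in the controls against 217 and 169 in Tbx1cko, Cox7a1 had 66.7, 154 and 49.9 in the controls against 76.8 and 95.8 in Tbx1cko, and Cox8b had 41.8, 104 and 24.5 in the controls against 39.3 and 31.6 in Tbx1cko. In all 3 genes control replicate 2 was the highest library and control replicate 3 the lowest, and both Tbx1cko values lay between them. The log2 differences were -0.37 (limma, SE 0.533, adjusted p = 0.788) for Cox6a2, 0.10 (limma, SE 0.53, adjusted p = 0.942) for Cox7a1 and -0.42 (limma, SE 0.646, adjusted p = 0.796) for Cox8b. Without control replicate 2 they were 0.10, 0.56 and 0.14. The summed cardiomyocyte markers were also highest in control replicate 2 and lowest in control replicate 3, at 9539.7, 18291 and 8357 normalised counts over control replicates 1 to 3, against 11939 and 10363 in Tbx1cko, with Mb, the muscle oxygen store myoglobin, at 1922, 4066 and 1572 in the controls against 2424 and 2007 in Tbx1cko. Of the 10, 7 were highest in control replicate 2 and 7 lowest in control replicate 3, none was at 0, and their part in the muscle isoforms was not tested.

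As shares of both forms per kb, Cox6a2 made up 5.68% to 8.03% in controls and 8.69% and 6.60% in Tbx1cko, Cox7a1 10.7% to 19.7% and 12.7% and 16.2%, and Cox8b 2.14% to 4.85% and 2.92% and 2.56%. The groups overlapped in each. The general forms had 3010.1, 4618 and 1801 in the controls against 1912 and 2012 in Tbx1cko for Cox6a1, 767, 940.1 and 624 in the controls against 790.2 and 746 in Tbx1cko for Cox7a2 and 2125, 3113 and 1709 in the controls against 1996 and 1834 in Tbx1cko for Cox8a. Their log2 differences were -0.58 (limma, SE 0.411, adjusted p = 0.762), 0.00 (limma, SE 0.245, adjusted p = 0.997) and -0.23 (limma, SE 0.295, adjusted p = 0.774). They were, without control replicate 2, -0.25, 0.15 and 0.01, and Cox6a1 was at -0.11 after GC correction. Cox7a2l, a related protein that joins respiratory complexes into larger assemblies, had 3550.1, 3912 and 2591 in the controls against 2785 and 3218 in Tbx1cko and 2.48-fold the level of Cox7a2 per kb. Cox6b2 stayed between 4.70 and 12.9 normalised counts and made up 0.486% to 1.14% of both Cox6b forms. The 3 genes for subunit c of the ATP synthase rotor, which encode the same mature protein, had mean levels per kb of 2829 for Atp5g2, 2329 for Atp5g3 and 395 for Atp5g1, with log2 differences of -0.10 (limma, SE 0.265, adjusted p = 0.878), -0.06 (limma, SE 0.196, adjusted p = 0.91) and -0.35 (limma, SE 0.314, adjusted p = 0.762). Atp5g1 was at -0.10 without control replicate 2.

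**Figure D5:**
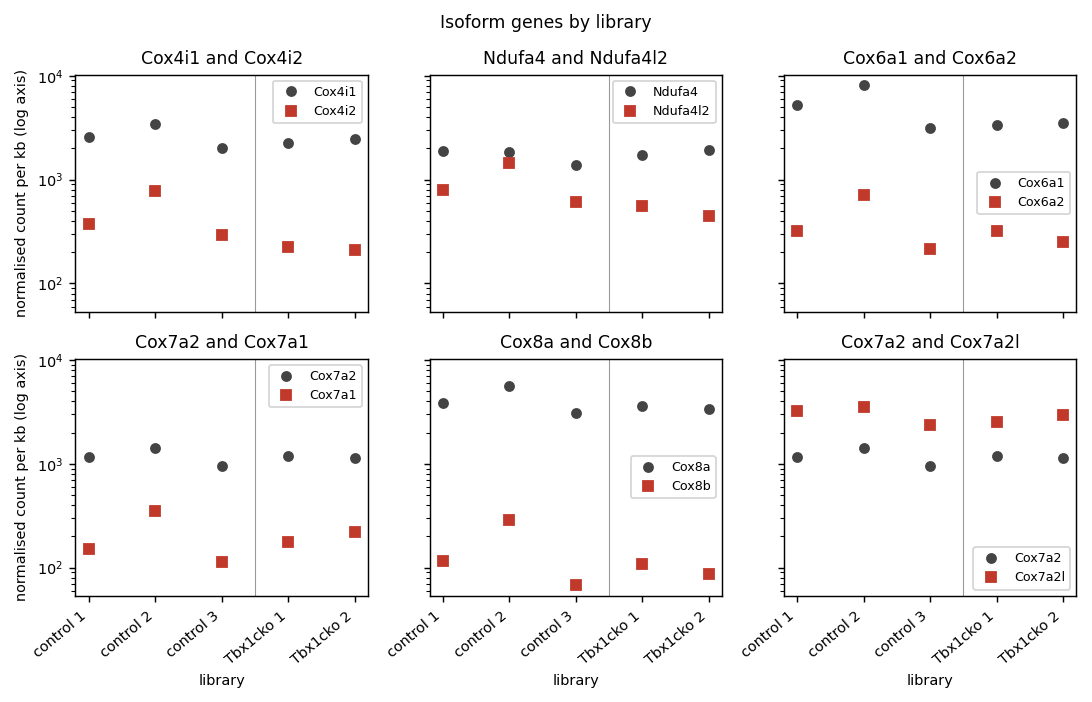
Normalised count per kb of transcript (log axis) of 6 pairs of isoform genes in each library, general form as grey circles and the other form as red squares, with the genotypes separated by the vertical line. Cox4i2 and Ndufa4l2 are lowest in the 2 Tbx1cko libraries, while Cox6a2, Cox7a1 and Cox8b are highest in control replicate 2.

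Other genes of the pathway gave no call either. Of 41 assembly factor genes tested, 22 lay above and 19 below 0, with a median log2 difference of 0.12 (0.11 without control replicate 2). The groups did not overlap for 12 higher (29.3%, against 14.2% of all genes) and 4 lower (9.76%, against 13.9%). Tmem126b, a factor for the membrane arm of complex I, had 223, 156 and 252 in the controls against 317 and 296 in Tbx1cko, a log2 difference of 0.57 (limma, SE 0.286, adjusted p = 0.762), or 0.37 without control replicate 2. Of 14 genes for electron carriers and their partners, 8 lay above 0, with a median of 0.15, or 0.07 without control replicate 2. Among them Ndufab1, the mitochondrial acyl carrier protein that is also a complex I subunit, had 193, 103 and 233 in the controls against 322 and 287 in Tbx1cko. It was highest in the 2 Tbx1cko libraries, at a log2 difference of 0.86 (limma, SE 0.402, adjusted p = 0.762), or 0.52 without control replicate 2. The 17 citric acid cycle genes had a median of 0.09, with 11 above 0 and 3 higher without overlap (17.6%, against 14.2% of all genes).

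Regulators of mitochondrial biogenesis lay on both sides of 0, 10 of 18 above, with a median log2 difference of 0.14, or -0.02 without control replicate 2. The groups did not overlap for 5 lower (27.8%, against 13.9% of all genes) and 2 higher (11.1%, against 14.2%). These counts were the same without control replicate 2, where the shares of all genes were 17.8% and 19.7%. Ppargc1a, the coactivator PGC-1alpha, had 7.91, 3.68 and 8.47 in the controls against 24.7 and 14.3 in Tbx1cko, a log2 difference of 1.43 (limma, SE 0.563, adjusted p = 0.762) that rested on few reads. It was the only member of these lists with an unadjusted limma p below 0.05 (1.74% of all genes). Its relative Ppargc1b had 48.6, 84.6 and 40.5 in the controls against 19.2 and 31.6 in Tbx1cko, a log2 difference of -1.13 (limma, SE 0.461, adjusted p = 0.762). The groups did not overlap for either gene, and the 2 lay on opposite sides of 0. Over the 4 lists together 0 genes passed the limma threshold.

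The start regions of the subunit genes were examined for letters that nuclear regulators of these genes are known to bind, which the choice by name did not use. RefSeq windows (GRCm38.p6) of 300 bases, 250 before to 50 after a gene's start, were found for 68 of the 82 genes. Searched on both strands, the NRF1 letters CGCATGCGC stood in 8 of the 68 (11.8%, against 1.95% of 27025 genes with a window), the ETS letters CCGGAAG, which fit GABPA, in 16 (23.5% against 9.93%), and the YY1 letters AANATGGCG in 11 (16.2% against 2.76%). The SP1 letters GGGCGG stood in 39.7% against 38.2%, CCAAT in 44.1% against 41.1%, the ESRRA letters TCAAGGTCA in 2 genes (2.94% against 0.466%) and TATAAA in 8.82% against 15.7%. At least 1 of the NRF1, ETS and YY1 letters stood in 30 genes (44.1% against 13.5%). The windows of the subunit genes had a median GC content of 57.5%, against 52.7% of all windows, and a match is a description of these letters only.

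Of the 4 genes whose window held both NRF1 and ETS letters, 3 are shown with the muscle isoform Cox8b for comparison, each as the 150 bases before its RefSeq start (GRCm38.p6, all on the minus strand, 5′ to 3′). Capitals mark any of the 7 letter sets searched, on either strand, and letters elsewhere in the window are not shown. The gene left out is Atp5l, whose 150 bases before the start hold only the TATAAA letters.
Atp5k, chr5:108434400-108434549: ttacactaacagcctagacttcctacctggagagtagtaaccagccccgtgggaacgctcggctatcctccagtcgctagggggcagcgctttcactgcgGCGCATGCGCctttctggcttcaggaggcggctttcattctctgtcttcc
Cox6a1, chr5:115348959-115349108: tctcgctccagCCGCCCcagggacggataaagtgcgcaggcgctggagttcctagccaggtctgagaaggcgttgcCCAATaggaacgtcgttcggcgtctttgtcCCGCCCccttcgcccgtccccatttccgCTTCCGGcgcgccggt
Uqcr11, chr10:80406822-80406971: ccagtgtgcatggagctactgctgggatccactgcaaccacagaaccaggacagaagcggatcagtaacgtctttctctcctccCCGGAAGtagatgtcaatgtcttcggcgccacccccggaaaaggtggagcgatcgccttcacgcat
Cox8b, chr7:140900447-140900596: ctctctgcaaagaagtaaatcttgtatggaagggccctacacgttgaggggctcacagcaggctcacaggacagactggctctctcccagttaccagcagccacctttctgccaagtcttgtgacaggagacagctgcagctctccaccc
The Atp5k sequence, of the e subunit of ATP synthase, holds 2 overlapping NRF1 matches in 1 palindrome. Cox6a1 holds ETS, SP1 and CCAAT letters and Uqcr11 ETS letters, while these 150 bases of Cox8b hold none of the letters searched. The whole Cox8b window does hold the TATAAA letters. The normalised counts of Atp5k were 163, 251 and 153 in the controls against 243 and 151 in Tbx1cko, with overlapping groups.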

How the data were processed

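RNA (polyA) of CD31+ cells was sequenced on an Illumina platform after TruSeq library preparation, per the labels' protocols. The submitters' processing notes name the GRCm38 (mm10) build, STAR 2.5.2b, DESeq, DESeq2 1.20.0 and R 3.5.1. No source used here names the counting program, its annotation or its strand setting. The deposited values are a signal, the authors' normalised read counts, from which whole reads could be recovered for all values.

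Differences were tested with limma 3.58.1 (R 4.3.3, trended prior, two-sided) on log2(normalised count + 1) for genes with a mean of at least 10, with genotype as the only term and Benjamini-Hochberg adjustment over all genes tested. Alternatives were other pseudocounts and filters, TMM scaling, edgeR 4.0.16 and DESeq2 1.42.0 on the recovered reads, a replicate block, corrections for GC content and length, and each library left out. Transcript length and GC content are medians over the basic protein-coding transcripts of GENCODE M21. The procedure was tested on simulated data, with large changes set in 200 genes and the spread of the libraries other than control replicate 2. This does not show how it performs for small changes or with the spread of that library. The precision is set by the number of libraries and by the depth.

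The genes and lists were chosen with earlier results of these data known. Genes named with a test were the 4 with the smallest p in each complex, isoform pairs, core subunits and up to 2 genes of each pathway list. Further genes were named for the highest or lowest level per kb in a complex and, for marker lists, for the highest mean. Ndufa9, Ndufb3, Ndufb5, Uqcrc1, Atp5k, Cdh5, Pdgfrb, Notch3, Mb and Ccr2 are not all covered by it, and these were picked with their values known.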

Additional observations from a re-analysis of the deposited data

How the results depend on the processing

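In none of the 18 alternatives was a subunit gene called, and the smallest adjusted p among the named genes was 0.246, with limma and the replicate block. Over all genes the calls numbered 4 with DESeq2 and 3 with the replicate block, from 0 to 3 with 1 library left out (3 without control replicate 2), and, without control replicate 2, 1 with edgeR and 78 with DESeq2, an alternative chosen after seeing the data. Subunit genes higher without overlap numbered 15 with GC correction (16.5% of all genes) and 10 to 19 with 1 library left out: 19 without control replicate 2 (19.7% of all genes), 16 without Tbx1cko replicate 2 (24.9%), 13 without control replicate 1 (18.4%), 11 without Tbx1cko replicate 1 (26.6%) and 10 without control replicate 3 (28.4%). Those lower without overlap numbered 3 to 31, with 31 without control replicate 3 (24.8% of all genes) and 14 without Tbx1cko replicate 1 (25.3%). With 1 library left out, the median log2 difference of the subunit genes ranged from -0.24 without control replicate 3 to 0.06 without control replicate 2. It was 0.13 with GC correction and 0.10 with GC and length correction. The median log2 difference of complex V was 0.18 with GC correction. Same-numbered libraries had correlations of -0.06 and -0.05 between their deviations from the group means, and the numbers were not taken as pairs. The deviations of the 2 Tbx1cko libraries mirror each other, so these correlations are not separate checks and cannot settle whether libraries were paired. The replicate block left the subunit genes at a median of -0.24 and called 3 genes in all. Replicate 3 exists only among the controls, so with this block the log2 differences are those of the fit without control replicate 3.

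Of 647 comparisons for 36 named genes, 84 changed sign against the fit of all 5 libraries, none with a call, and 18 genes kept their sign throughout. With TMM scaling the reversed values were Cox7a2 -0.0050. With edgeR the reversed values were Sdhb -0.016, Cox7a1 -0.077, Cox7a2 -0.030. With DESeq2 the reversed values were Sdhb -0.0052, Cox7a1 -0.066, Cox7a2 -0.019. With the replicate block the reversed values were Ndufa4 -0.025, Sdhb -0.11, Cox7a1 -0.24, Cox7a2 -0.15. With GC correction the reversed values were Ndufa4 -0.27, Ndufv1 0.22, Sdhc 0.020, Cox4i1 0.29, Cox7b -0.54, Cox8a 0.22, Atp5b 0.13, Atp5g2 0.29, Atp5g3 0.041. With GC and length correction the reversed values were Ndufa4 -0.27, Ndufv1 0.15, Uqcrfs1 -0.0015, Cox4i1 0.25, Cox7b -0.60, Cox8a 0.22, Atp5b 0.10, Atp5g2 0.28, Atp5g3 0.0034. Without control replicate 2 and with GC correction, they were Ndufv1 0.27, Sdha 0.0026, Sdhc 0.095, Cox4i1 0.16, Cox5a 0.011, Cox6a2 0.13, Cox8a 0.12, Cox8b 0.20, Atp5b 0.051, Atp5g2 0.19, Atp5g3 0.0012, Atp5j -0.0062. Without control replicate 2 and with edgeR, they were Ndufv1 0.18, Sdha 0.019, Sdhc 0.077, Cox4i1 0.032, Cox5a 0.035, Cox6a2 0.082, Cox8b 0.098, Atp5b 0.032, Atp5g2 0.091, Atp5j -0.021. Without control replicate 2 and with DESeq2, they were Ndufv1 0.18, Sdha 0.021, Sdhc 0.079, Cox4i1 0.033, Cox5a 0.036, Cox6a2 0.080, Cox8b 0.092, Atp5b 0.033, Atp5g2 0.093, Atp5j -0.020. With 1 library left out, the genes that changed sign ranged over Ndufa4 -0.025 to 0.20, Ndufv1 -0.34 to 0.19, Sdha -0.051 to 0.034, Sdhb -0.11 to 0.18, Sdhc -0.27 to 0.091, Uqcrfs1 -0.035 to 0.23, Cox4i1 -0.32 to 0.056, Cox5a -0.31 to 0.040, Cox6a2 -0.75 to 0.10, Cox7a1 -0.24 to 0.56, Cox7a2 -0.15 to 0.15, Cox8a -0.43 to 0.0057, Cox8b -0.89 to 0.14, Atp5b -0.11 to 0.044, Atp5g2 -0.24 to 0.11, Atp5g3 -0.15 to 0.015, Atp5j -0.0077 to 0.66. The cause of these changes was not tested. Depth limits the weakly counted Cox6b2 and Cox8b. Control replicate 2, with 1 read of Uqcrb, was the deepest library, at 18617284 reads. The number of libraries limits every test.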
